A study of Mus musculus with 8 samples.

Results

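The genes described here encode the proteasome of mouse melanocytes and its activators, inhibitor and assembly chaperones. They were chosen by name: every gene whose symbol is Psma to Psmg followed by a number and which has a probe set of its own on the array. Of 22180 genes measured in this way, 47 belonged to the family: 15 core subunits outside the immunoproteasome, 3 immunoproteasome subunits, 17 regulatory subunits and 12 activators, inhibitors and chaperones. Psma4, a core alpha subunit, shared its probe sets with another gene and was not a member. Melanocytes, the pigment cells of the skin, came from pups aged 1 to 5 days and spent 22 days in culture. WT cells carried floxed Atg7 alleles (Atg7 f/f) and were autophagy competent. KO cells carried the same alleles and Tyr::Cre, a Cre recombinase under the tyrosinase promoter, which acts in pigment cells and leaves other cells of a culture with intact alleles. Cells of both genotypes were sham treated or given 20 J/cm² of UVA-1 (ultraviolet A of long wavelength), and RNA was isolated after 6 h. The 8 arrays formed 4 groups of 2, numbered 1 and 2 in each group and described by the submitters as biological duplicates. What a number means is not given in the labels, and p-values therefore measure only the spread between these arrays, which may be technical.

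The proteasome is the protease that degrades proteins tagged with ubiquitin. Its 20S core is a barrel of alpha rings, which gate the entry, and beta rings, which hold the proteolytic sites. The 19S regulatory particle sits on the barrel, binds ubiquitin chains, removes them and unfolds the substrate with a ring of ATPases. Under interferon, cells replace the standard catalytic subunits Psmb5, Psmb6 and Psmb7 with the immunoproteasome subunits Psmb8, Psmb9 and Psmb10, which favours peptides for MHC class I. Autophagy is the other large route of protein breakdown, and Atg7, the E1-like enzyme removed here, serves that route. Proteasome genes are known to be induced by the transcription factors NRF1, after proteasome inhibition, and NRF2, after oxidative stress.

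Several features of the whole data set bear on these genes. The Atg7 probe set read 9.95 and 9.75 in WT sham, 9.97 and 9.70 in WT UVA, 9.70 and 9.22 in KO sham and 9.65 and 9.23 in KO UVA (log2 intensity, number 1 then number 2), a KO minus WT difference of -0.39 that did not pass the test (limma adjusted p = 1 unblocked, and 0.297 in a fit with the number as a block, below called the number block). The table used does not say which exons this probe set covers, so it cannot check the deletion. The arrays split mainly by number, along a principal component that took up 77.7% of their variance. Of 13 melanocyte markers, 12 lay above the median of all genes, and all 13 were higher in number 2, by a median of 1.21 log2 units. Fibroblast markers went the other way, with 11 of 12 lower in number 2 by a median of -1.41. Within number 1 the fibroblast median of KO minus WT was -0.01, and within number 2 it was 1.11. For melanocyte markers these medians were 0.00 and -0.33. The log2 of the summed fibroblast signal ranged from 13.4 to 15.5 in WT sham, 13.2 to 15.4 in WT UVA, 14.4 to 15.6 in KO sham and 14.3 to 15.5 in KO UVA. In a culture, a change in the make-up of cells and a change in RNA per cell cannot be told apart, and the part of these markers in the results below was not tested.

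Of the 47 members, 43 had a mean signal above the median of all genes (7.31 on the log2 scale). Below it lay Psma8, an alpha subunit of the testis, at 5.52, Psmb11, the beta subunit of the thymus, at 5.98, Psma5 at 5.87 and Psmb9 at 6.69. Psma5 encodes an alpha subunit of all proteasomes, and a second probe set of it was as low, at a mean of 5.86. Signals of different probe sets were not compared with each other.

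The comparison of UVA with sham asks how proteasome transcripts stood 6 h after irradiation. Most genes of the core and all 17 regulatory subunit genes of the family read slightly higher after UVA. The immunoproteasome genes, the PA28 genes Psme1 and Psme2 and the chaperone genes Psmg1, Psmg2 and Psmd10 read lower. The shifts were small, mostly under 0.3 log2 units. Psma1, an alpha ring subunit, was the member with the largest shift, 0.31 log2 units or 1.24-fold, and passed the test only where each UVA array was set against the sham array that shared its genotype and number. Averaged over genotypes, 36 of 47 members had a positive difference and 11 a negative one, where 50.9% and 48.8% of all genes did, and the median was 0.08 against 0.00 for all genes. The UVA array lay above its sham array in all 4 pairs for 17 members (36.2%) and below in all 4 for 2. Over all genes these shares were 10.6% and 9.08%. Among genes with a mean above the median, where 43 members lie, the share above in all 4 pairs was 16.2%, against 39.5% of those members.

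**Figure D1:**
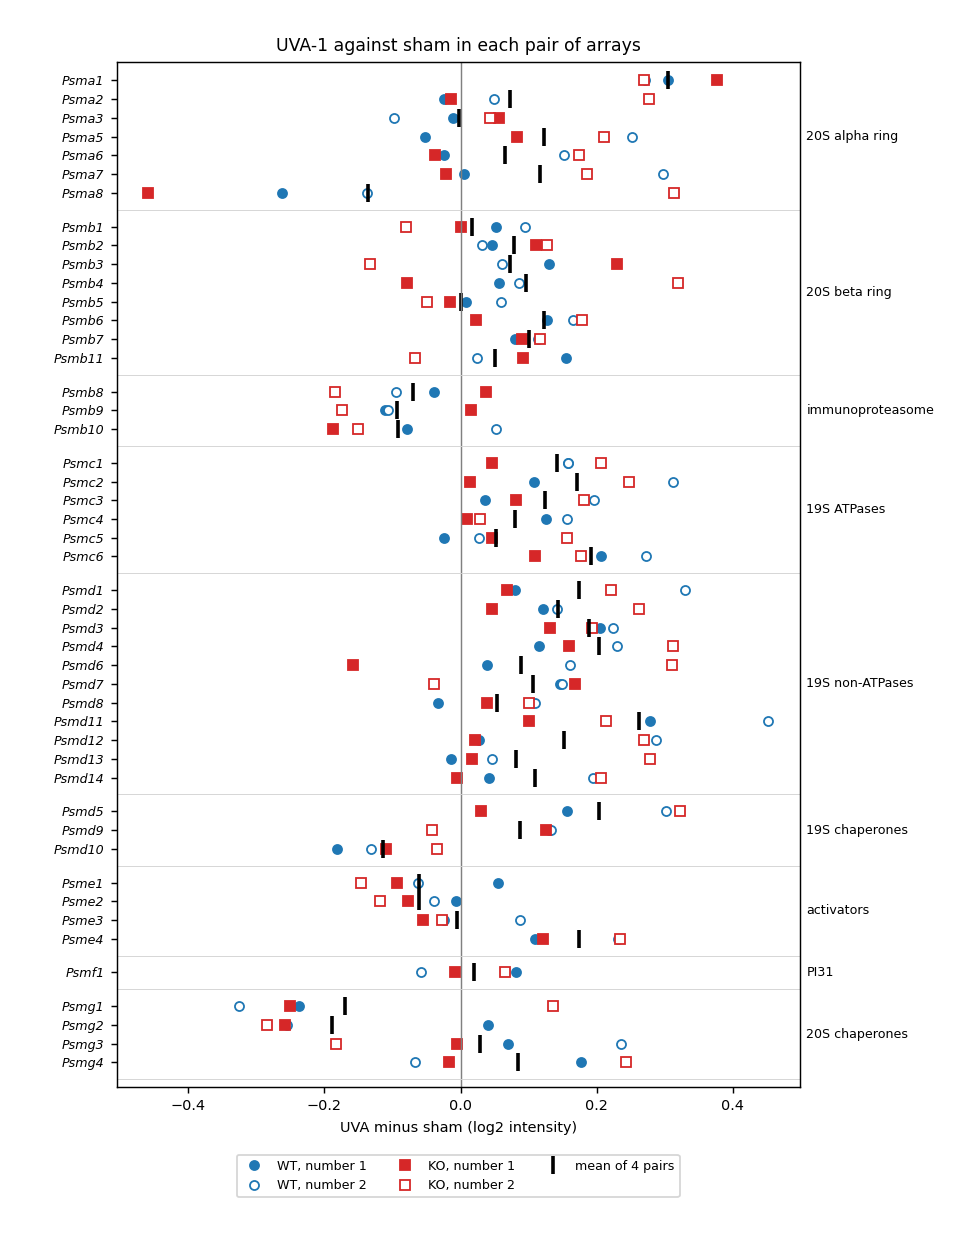
UVA minus sham difference in log2 intensity for each of the 47 members, with 1 point for each pair of arrays (WT circles, KO squares; number 1 filled, number 2 open) and a bar at the mean of the 4 pairs, grouped by role. All 17 bars of the 19S ATPases and non-ATPases lie above 0, and the bars of the 3 immunoproteasome genes lie between -0.09 and -0.07.

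By the test, the shifts were mostly not separable from the spread between arrays. Limma, unblocked, called 0 of 47 members and 0% of all genes (1 member at an unadjusted p under 0.05, where 1.81% of genes were). With the number block it called 0 members and 0.0135% of genes. At an unadjusted p under 0.05 that fit held 11 members as higher and 1 as lower, where 3.88% and 2.66% of all genes were. In a further fit, the culture block, sham and UVA arrays that share genotype and number were paired; that they came from one culture is not stated in the labels. With it limma called 1 member, Psma1, and 0.437% of genes.

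Psma1 lies at the outer face of the core as part of the alpha ring. It read 10.82 and 10.95 in WT sham, 11.12 and 11.22 in WT UVA, 10.90 and 10.91 in KO sham and 11.28 and 11.18 in KO UVA (log2 intensity, number 1 then number 2, as in all such sentences). All 4 UVA arrays were above all 4 sham arrays, which held for 5 members (10.6%) and 1.23% of all genes. The pairs differed by 0.30 and 0.27 in WT and by 0.38 and 0.27 in KO. The mean difference of 0.31 had an SE of 0.04 with the culture block (limma adjusted p = 0.034), 0.06 with the number block (adjusted p = 0.601) and 0.08 unblocked (adjusted p = 1).

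The 250 bases before the start of 4 genes are printed here because they carry or lack letters of elements tied to proteasome genes, and because the genes differ in the sign of their UVA shift: Psma1, Psmb6 and Psmc6 were higher in all 4 pairs and Psmb9 was lower in 3 of 4. Sequences are from RefSeq on GRCm38.p6, written 5′ to 3′ along the gene. Capitals mark matches on either strand to the antioxidant response element, searched as TGACNNNGC, or to the CCAAT box, searched as CCAAT.
Psma1, chr7:114276117-114276366, minus strand: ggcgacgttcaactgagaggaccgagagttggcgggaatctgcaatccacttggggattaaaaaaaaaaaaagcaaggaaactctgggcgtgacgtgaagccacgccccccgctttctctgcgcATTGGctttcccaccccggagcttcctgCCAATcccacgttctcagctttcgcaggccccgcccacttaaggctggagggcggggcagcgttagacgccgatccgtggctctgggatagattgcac
Psmb6, chr11:70525107-70525356, plus strand: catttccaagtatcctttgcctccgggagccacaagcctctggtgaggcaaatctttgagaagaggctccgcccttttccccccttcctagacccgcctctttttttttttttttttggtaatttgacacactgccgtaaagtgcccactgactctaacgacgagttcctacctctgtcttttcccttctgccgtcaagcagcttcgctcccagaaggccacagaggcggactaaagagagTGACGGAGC
Psmc6, chr14:45329574-45329823, plus strand: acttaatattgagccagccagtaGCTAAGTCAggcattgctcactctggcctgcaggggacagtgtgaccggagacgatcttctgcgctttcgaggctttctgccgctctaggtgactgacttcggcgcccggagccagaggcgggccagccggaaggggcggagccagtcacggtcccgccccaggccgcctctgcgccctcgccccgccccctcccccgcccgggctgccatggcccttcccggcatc
Psmb9, chr17:34187331-34187580, minus strand: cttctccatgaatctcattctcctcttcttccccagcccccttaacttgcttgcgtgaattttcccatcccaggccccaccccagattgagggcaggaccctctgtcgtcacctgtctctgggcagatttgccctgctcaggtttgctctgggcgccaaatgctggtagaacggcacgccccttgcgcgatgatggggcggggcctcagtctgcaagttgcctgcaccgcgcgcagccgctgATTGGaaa

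In Psma1 the capitals are a CCAAT box on the other strand that starts at position -126 relative to the gene start and one on the gene's strand at -98. Psmb6 held an antioxidant response element that starts at -9, and Psmc6 held one on the other strand at -227. Psmb9 held a CCAAT box on the other strand at -8. Promoter windows were found for 39 of the 47 members (42 windows). The antioxidant response element was in 5 of these 42 windows (11.9%: Psmb5, Psmb6, Psmc6, Psmd12 and Psmd9), close to its share of 10.2% over all 32851 windows. The CCAAT box was in 14 (33.3%), against 33.8% of all windows. By role, it was in 7 of 12 core windows (58.3%), 4 of 15 regulatory windows (26.7%), 1 of 3 immunoproteasome windows (33.3%) and 2 of 12 others (16.7%). The difference between these shares was not tested. The interferon elements, searched as GAAA and GAAA with any 2 bases between them and as TTCNNNGAA, were in 3 and 2 of the 42 windows (7.14% and 4.76%), against 2.98% and 7.02% of all. The first of them was in the windows of Psmb3, Psmd4 and Psmd9 and in 0 of 3 immunoproteasome windows. The second was in those of Psmb8 and Psmg1. In 48 of all windows an antioxidant response element overlapped a CCAAT box. The printed genes were picked with their UVA values known. Of the unprinted genes with an antioxidant response element, Psmd12 was higher after UVA in all 4 pairs, Psmd9 in 3 and Psmb5 in 2. A link between matches and UVA shifts was not tested. A match describes letters and says nothing of binding.

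The members of the 19S regulatory particle shifted one way. All 17 had a positive UVA difference, with a median of 0.14 log2 units and a range of 0.05 to 0.26. Of them, 11 were higher in all 4 pairs. The median was 0.11 and 0.20 in the WT pairs of number 1 and 2, and 0.05 and 0.21 in the KO pairs. In the same pairs 14, 17, 15 and 16 of the 17 genes were higher, so the KO pair of number 1 showed the smallest shifts and not the fewest. None of these 17 genes passed in any of the 3 fits. With the chaperones Psmd5, Psmd9 and Psmd10 counted in, 19 of 20 genes were positive, with Psmd10 as the exception. Sem1, a 19S subunit gene outside the naming rule, had a negative UVA difference. Fibroblast markers read lower after UVA, by medians of -0.12 in the WT pair of number 2 and -0.09 in both KO pairs, and 0.03 higher in the WT pair of number 1. Their part in the shift was not tested.

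Among the non-ATPases, Psmd11, a scaffold subunit of the lid, read 11.12 and 10.77 in WT sham, 11.40 and 11.22 in WT UVA, 11.29 and 10.89 in KO sham and 11.39 and 11.11 in KO UVA. Within each number the UVA arrays were above the sham arrays, but the sham and UVA arrays overlapped, since all arrays of number 2 read lower than their partners of number 1. Its mean UVA difference was 0.26 (SE 0.05 and limma adjusted p = 0.066 with the culture block, 0.601 with the number block). Psmd4, a receptor for ubiquitin chains, read 9.71 and 9.70 in WT sham, 9.83 and 9.93 in WT UVA, 9.74 and 9.48 in KO sham and 9.90 and 9.80 in KO UVA. All 4 UVA arrays lay above all 4 sham arrays, with a difference of 0.20 (SE 0.05, limma adjusted p = 0.174 with the culture block). Psmd3, another lid subunit, differed by 0.19. Psmd1 and Psmd2, the large scaffolds of the base, differed by 0.17 and 0.14. Psmd14, the deubiquitinase that removes ubiquitin chains from substrates, differed by 0.11 and was lower in the KO pair of number 1, by -0.01.

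The ATPase ring of the base holds Psmc1 to Psmc6. All 6 had a positive difference (median 0.13), and 5 were higher in all 4 pairs, with Psmc5 as the exception (-0.02 in the WT pair of number 1). Psmc6 led, at 11.58 and 11.71 in WT sham, 11.79 and 11.98 in WT UVA, 11.62 and 11.62 in KO sham and 11.73 and 11.80 in KO UVA. Its 4 UVA arrays were above the 4 sham arrays, and the difference was 0.19 (SE 0.04, limma adjusted p = 0.0789 with the culture block). For Psmc2 the UVA arrays were also clear of the sham arrays, with a difference of 0.17.

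The 15 genes of the 20S core outside the immunoproteasome, the dim tissue-specific Psma8 and Psmb11 included, had a median of 0.07, and 13 were positive. Psma1, Psmb2, Psmb6 and Psmb7 were higher in all 4 pairs. The median of the 7 alpha genes was -0.02 in WT and -0.01 in KO for number 1, and 0.15 and 0.21 for number 2, while Psma1 and Psma3 had the larger mean in number 1. Psma7, for example, differed by 0.00 and -0.02 in number 1 and by 0.30 and 0.19 in number 2. Psma8, the testis subunit, gave the lowest value of the core (-0.14), at 5.75 and 5.78 in WT sham, 5.49 and 5.64 in WT UVA, 5.78 and 5.04 in KO sham and 5.32 and 5.36 in KO UVA. UVA was below sham in both WT pairs and the KO pair of number 1 and above it in the KO pair of number 2, on a dim probe set. The difference between the 19S and 20S medians was not tested.

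The catalytic subunits of the standard core and their immunoproteasome counterparts had UVA differences of opposite sign in 2 of 3 pairs of genes, while Psmb5 was level. Psmb6, which cuts after acidic residues, read 9.79 and 9.87 in WT sham, 9.92 and 10.04 in WT UVA, 9.83 and 9.73 in KO sham and 9.86 and 9.91 in KO UVA. Psmb7, which cuts after basic residues, read 10.84 and 10.99 in WT sham, 10.92 and 11.10 in WT UVA, 10.84 and 10.92 in KO sham and 10.93 and 11.04 in KO UVA. UVA was above sham in every pair for both, by means of 0.12 (SE 0.05) and 0.10 (SE 0.04), without passing (limma adjusted p = 0.379 and 0.358 with the culture block). Psmb5, which cuts after hydrophobic residues, read 13.16 and 13.28 in WT sham, 13.16 and 13.34 in WT UVA, 13.18 and 13.30 in KO sham and 13.17 and 13.25 in KO UVA, a mean difference of 0.00 (SE 0.03). Its arrays split by number, with number 2 higher throughout.

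Psmb9, the counterpart of Psmb6, read 6.57 and 6.99 in WT sham, 6.46 and 6.88 in WT UVA, 6.54 and 6.83 in KO sham and 6.55 and 6.66 in KO UVA. Psmb10, the counterpart of Psmb7, read 9.27 and 10.12 in WT sham, 9.19 and 10.17 in WT UVA, 9.58 and 10.07 in KO sham and 9.39 and 9.92 in KO UVA. For Psmb8, the counterpart of Psmb5, the arrays read 7.56 and 7.77 in WT sham, 7.52 and 7.68 in WT UVA, 7.55 and 7.81 in KO sham and 7.59 and 7.63 in KO UVA. All 3 genes were higher in number 2 than in number 1 on every array, and the UVA and sham arrays overlapped. Their UVA differences were -0.09 (SE 0.08), -0.09 (SE 0.05) and -0.07 (SE 0.07), with SEs of the culture block. None passed (limma adjusted p = 0.715, 0.552 and 0.782), and none was lower in all 4 pairs. The difference in UVA shift between standard and immunoproteasome genes was not tested.

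**Figure D2:**
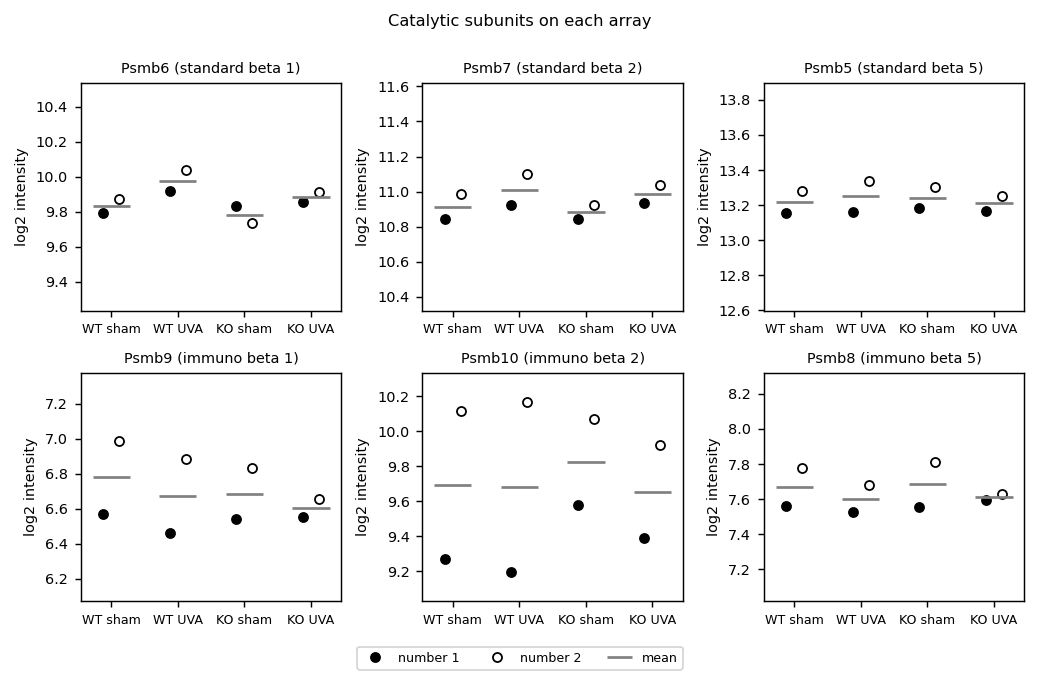
Log2 intensity of the 3 standard catalytic subunits (top) and their immunoproteasome counterparts (bottom) on each of the 8 arrays, by group; filled points are number 1, open points number 2 and bars the mean of 2 arrays, and each panel spans the same number of log2 units. Psmb10 lies between 9.19 and 9.58 in number 1 and between 9.92 and 10.17 in number 2, so the numbers do not overlap.

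Of the activators other than the 19S particle, Psme4 had a positive UVA difference and Psme1 and Psme2 negative ones; none passed, and the contrast between them was not tested. Psme4 encodes PA200, a nuclear activator that opens the core without ATP, and read 10.74 and 10.91 in WT sham, 10.85 and 11.14 in WT UVA, 10.74 and 10.95 in KO sham and 10.86 and 11.18 in KO UVA. UVA was above sham in all 4 pairs, by 0.11, 0.23, 0.12 and 0.23, a mean of 0.17 (SE 0.05, limma adjusted p = 0.165 with the culture block). Within a number, WT and KO were nearly level. Psme1 and Psme2 encode the interferon-inducible PA28 subunits. Psme1 read 9.26 and 9.72 in WT sham, 9.31 and 9.66 in WT UVA, 9.32 and 9.54 in KO sham and 9.22 and 9.40 in KO UVA, with a UVA difference of -0.06 (SE 0.05, limma adjusted p = 0.728 with the culture block), and was lower in 3 of 4 pairs. Psme2 read 8.64 and 8.80 in WT sham, 8.64 and 8.76 in WT UVA, 8.65 and 8.80 in KO sham and 8.57 and 8.68 in KO UVA, with a difference of -0.06 (SE 0.06, limma adjusted p = 0.758 with the culture block), and was lower in all 4 pairs. Psme3, the nuclear PA28 gamma, read 10.26 and 9.99 in WT sham, 10.23 and 10.07 in WT UVA, 10.24 and 9.96 in KO sham and 10.19 and 9.93 in KO UVA and differed by -0.0048 (SE 0.05). It was lower in number 2 than in number 1 on every array, opposite to Psme1 and Psme2. Psmf1, the inhibitor PI31, differed by 0.02.

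Assembly chaperones differed among themselves. Psmg1 and Psmg2 form the dimer on which alpha rings assemble. Psmg1 read 9.02 and 9.20 in WT sham, 8.78 and 8.88 in WT UVA, 9.01 and 8.72 in KO sham and 8.75 and 8.86 in KO UVA, lower after UVA in 3 of 4 pairs, with a difference of -0.17 (SE 0.08, limma adjusted p = 0.405 with the culture block). The exception was the KO pair of number 2, where UVA was 0.14 higher. Psmg2 read 9.61 and 9.67 in WT sham, 9.65 and 9.41 in WT UVA, 9.75 and 9.68 in KO sham and 9.49 and 9.40 in KO UVA, also lower in 3 of 4 pairs, with the WT pair of number 1 as its exception (-0.19, SE 0.06, limma adjusted p = 0.253). Psmg3 and Psmg4, which form the second dimer, differed by 0.03 and 0.08. Of the chaperones of the 19S base, Psmd10 (gankyrin) was lower in all 4 pairs (-0.11) and Psmd5 was higher in all 4 (0.20), while Psmd9 differed by 0.09. None of these passed in any fit.

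Split by genotype, the UVA shift had the same sign in both for the main groups. In WT 37 of 47 members were positive and 10 negative, where 52.7% and 46.4% of all genes were (median 0.10 against 0.01). In KO 34 were positive and 13 negative, where 48.4% and 50.5% of all genes were (median 0.08 against 0.00). All 17 member genes of the 19S particle were positive in WT (median 0.15) and in KO (median 0.13). Limma called 0 members in either genotype unblocked (0% of genes), with the number block (0.00451% of genes in WT and 0.00902% in KO) and with the culture block (0.0541% and 0.00902%). At an unadjusted p under 0.05 the unblocked fit held 1 member in WT (1.54% of genes) and 1 in KO (1.57%). With the number block, 5 members were higher and 0 lower in WT (2.38% and 1.56% of genes), and 1 was higher and 1 lower in KO (2.15% and 1.87%).

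The interaction asks whether the UVA shift differed between the genotypes. Of 47 members, 21 had a larger value in KO and 26 a smaller one, with a median of -0.02 (-0.01 for all genes, of which 47.1% were positive and 52.6% negative). Limma called 0 members unblocked, with the number block and with the culture block, where it called 0% of genes in each, and 0 members had an unadjusted p under 0.05 in the unblocked fit (1.33% of genes) or with the number block (0.852% of genes higher and 1.21% lower). Psmg3 gave the lowest value, -0.25 (SE 0.17 unblocked, 0.15 with the number block and 0.14 with the culture block), at 8.05 and 7.95 in WT sham, 8.12 and 8.19 in WT UVA, 8.05 and 8.07 in KO sham and 8.04 and 7.89 in KO UVA. UVA was above sham in both WT pairs and below in both KO pairs. Psmd11 followed at -0.21 (SE 0.29 unblocked, 0.11 with the number block and 0.09 with the culture block), with UVA shifts of 0.28 and 0.45 in WT and 0.10 and 0.21 in KO. Psmg2 stood at -0.16. Leaving out 1 array moved Psmd11 to between -0.404 and -0.0125 and Psmg2 to between -0.285 and -0.0419. Those fits were unblocked and left the numbers unequal between groups. Within each number, the UVA shift of Psmd11 was smaller in KO than in WT. At the other end stood Psmg1 (0.22, SE 0.22 unblocked and 0.18 with the number block), Psmd13, a lid subunit (0.13), and Psma8 (0.13). Psmd13 read 8.97 and 8.93 in WT sham, 8.95 and 8.97 in WT UVA, 8.96 and 8.77 in KO sham and 8.98 and 9.05 in KO UVA, so its value rests on the KO pair of number 2.

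The comparison of KO with WT asks whether loss of Atg7 shifts proteasome transcripts. Differences were mostly on the lower side. Averaged over treatments, 33 of 47 members had a negative difference and 14 a positive one, where 54% and 45.8% of all genes did, with a median of -0.04 against -0.01. KO was below WT in all 4 pairs for 9 members (19.1%, against 7.78% of all genes): Psma6, Psma7, Psmb4, Psmc1, Psmc5, Psmd1, Psmd3, Psme3 and Psmg1. It was above in all 4 for Psma2 and Psme4 (4.26%, against 7.65%). These shares of all genes take in dim genes, and shares among genes above the median level were not computed for KO. Limma called 0 members unblocked (0% of genes) and 0 with the number block (0.0316% of genes), and 0 members had an unadjusted p under 0.05 in either fit, where 2.33% of all genes did unblocked and 4.93% (higher) and 3.95% (lower) did with the number block.

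**Figure D3:**
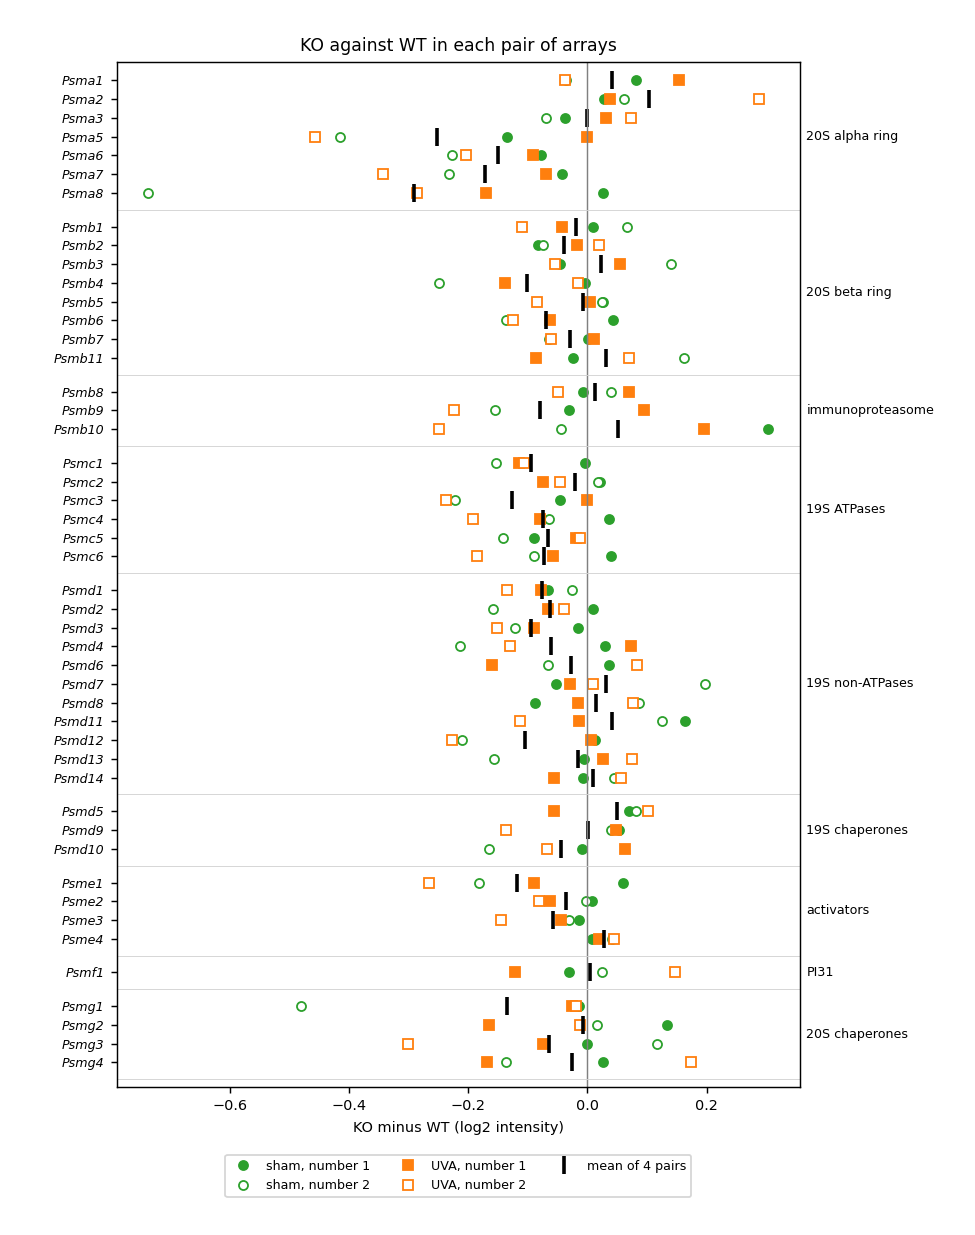
KO minus WT difference in log2 intensity for each of the 47 members, with 1 point for each pair of arrays (sham circles, UVA squares; number 1 filled, number 2 open) and a bar at the mean of the 4 pairs, grouped by role. Bars run from -0.29 for Psma8 to 0.10 for Psma2, and the median over members is 0.00 and -0.04 in the pairs of number 1 and -0.06 and -0.07 in those of number 2.

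By role, the KO difference was negative for 11 of 15 core genes (median -0.03), 13 of 17 regulatory genes (median -0.06), all 6 ATPases (median -0.07) and all 4 20S chaperones (median -0.05). The lowest values were those of the alpha genes. Psma8 (-0.29, SE 0.15 with the number block) was lowest in the KO sham array of number 2, at 5.04. Psma5 read 5.81 and 6.09 in WT sham, 5.75 and 6.34 in WT UVA, 5.67 and 5.67 in KO sham and 5.75 and 5.88 in KO UVA, a difference of -0.25 (SE 0.11, limma adjusted p = 0.564). The gap lay in number 2, at -0.42 after sham and -0.46 after UVA, while number 1 gave -0.13 and 0.00. Leaving out 1 array, in unblocked fits, moved the difference to between -0.398 and -0.106 for Psma5 and between -0.476 and -0.107 for Psma8. Psma7 read 10.64 and 10.52 in WT sham, 10.65 and 10.81 in WT UVA, 10.60 and 10.29 in KO sham and 10.58 and 10.47 in KO UVA and differed by -0.17 (SE 0.08, limma adjusted p = 0.593), again mostly in number 2. Psma6 was the only member whose 4 KO arrays all lay below the 4 WT arrays (2.13% of members, 0.942% of genes), with a difference of -0.15. The fibroblast markers were 1.11 higher in KO in number 2 and level in number 1, and their part in these differences was not tested.

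On the higher side, Psma2 read 10.23 and 10.09 in WT sham, 10.21 and 10.14 in WT UVA, 10.26 and 10.15 in KO sham and 10.25 and 10.43 in KO UVA, a difference of 0.10 (SE 0.07, limma adjusted p = 0.698). Most of it came from the KO UVA array of number 2. Psmb10 differed by 0.05 (SE 0.10), with KO above WT in number 1 by 0.30 and 0.20 and below in number 2 by -0.04 and -0.25. Psmd5, a chaperone of the base, read 10.51 and 10.17 in WT sham, 10.67 and 10.47 in WT UVA, 10.58 and 10.25 in KO sham and 10.61 and 10.57 in KO UVA and differed by 0.05. Psmb9 and Psmb8 differed by -0.08 and 0.01, and Psmb5, Psmb6 and Psmb7 by -0.01, -0.07 and -0.03. After sham alone 29 of 47 members were negative and 18 positive (50.2% and 48.9% of genes), and after UVA alone 35 were negative and 12 positive (54.6% and 44.3%). Limma called 0 members in each, unblocked and with the number block (0% of genes in each fit). At an unadjusted p under 0.05 there were 0 members in either fit, where unblocked 2.01% of genes passed after sham and 1.59% after UVA. With the number block 3.17% were higher and 2.38% lower after sham, and 2.07% and 2.11% after UVA.

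Single members also differed between the replicate numbers, Psmb10 furthest. Psmb10, Psmb9 and Psmb8 were higher in number 2 by 0.71, 0.31 and 0.17 log2 units, averaged over the 4 groups, and Psme1 and Psme2 by 0.31 and 0.13. Outside these genes, Psmg4, a chaperone of the core, was higher by 0.32, and Psmd11 differed by -0.30. Both were near Psmb9 and Psme1 in size and smaller than Psmb10. A part of interferon was not tested. The median over all members was 0.01, over the 15 core genes outside the immunoproteasome 0.01 and over the 17 regulatory genes -0.04. All 4 arrays of number 2 lay above all 4 of number 1 for 11 members (23.4%, against 16.6% of all genes), among them all 3 immunoproteasome genes, Psme1 and Psme2. They lay below for 1 member, Psme3 (2.13%, against 15.5%). Of 12 genes of MHC class I presentation and its regulators, 8 were higher in number 2, where 11385 of all 22180 genes were. The median of the 12 was small, 0.05 against 0.01 for all genes. The highest were the interferon regulator Irf1 (0.66), the peptide transporter Tap1 (0.63) and the MHC class I activator Nlrc5 (0.57). Tap1 lies head to head with Psmb9, and read 8.63 and 9.41 in WT sham, 8.76 and 9.53 in WT UVA, 8.73 and 9.20 in KO sham and 8.94 and 9.43 in KO UVA. It was higher after UVA in all 4 pairs (0.17) where Psmb9 was lower in 3. The number is no condition of the study, so these values describe the arrays, and the melanocyte and fibroblast markers given above differed between the same arrays. Of 6 Schwann cell markers 5 were higher in number 2, by a median of 0.45. The log2 of the summed signal of 10 myeloid markers was 10.3 and 10.7 in WT sham, 10.5 and 10.6 in WT UVA, 10.5 and 11.5 in KO sham and 10.5 and 11.4 in KO UVA, and 8 of the 10 lay below the median of all genes. Averaged over treatments, 3 of the 10 myeloid markers were higher in KO and 7 lower, with a median of -0.02. Within number 2 the median of KO minus WT was 0.03, so the summed signal does not speak for most of them. The part of the cell type markers was not tested.

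**Figure D4:**
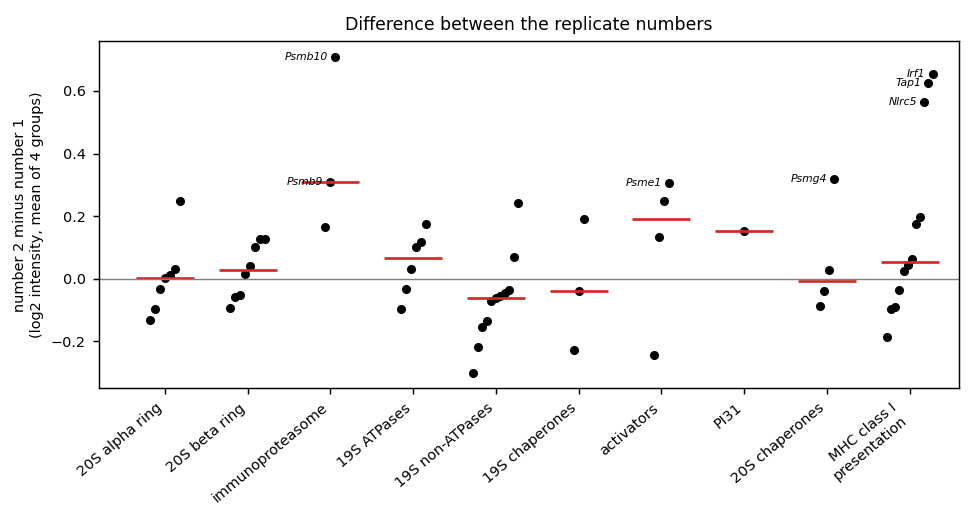
Number 2 minus number 1 difference in log2 intensity, averaged over the 4 groups, for each member by role and for 12 genes of MHC class I presentation; points are genes and red bars medians. Psmb10 stands at 0.71, and the medians of the 20S alpha, 20S beta, 19S ATPase and 19S non-ATPase genes lie between -0.06 and 0.07.

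Other genes of the pathway were read from lists, whose counts stand beside shares over all genes of 50.9% positive after UVA, 10.6% higher in all 4 pairs (16.2% among genes above the median level) and 0.437% called with the culture block. Of 12 measured shuttles, deubiquitinases and ligases of the proteasome, 11 were positive after UVA and 8 were higher in all 4 pairs. Zfand5, a zinc finger protein that stimulates the 26S proteasome, read 10.93 and 11.21 in WT sham, 11.19 and 11.42 in WT UVA, 10.88 and 10.99 in KO sham and 11.27 and 11.28 in KO UVA and rose by 0.29 log2 units (SE 0.04, limma adjusted p = 0.0367 with the culture block, 0.601 with the number block and 1 unblocked). Zfand2a, an arsenite-inducible protein bound to the 19S particle, read 10.32 and 9.98 in WT sham, 10.68 and 10.37 in WT UVA, 10.36 and 10.16 in KO sham and 10.64 and 10.28 in KO UVA, a difference of 0.29 that did not pass (adjusted p = 0.0618 with the culture block). Both were higher in all 4 pairs. Of 6 measured ubiquitin and segregase genes 5 were positive after UVA, and Nploc4, a cofactor of the VCP segregase, rose by 0.21 (SE 0.03, limma adjusted p = 0.04998 with the culture block, 0.601 with the number block). It read 12.43 and 12.49 in WT sham, 12.62 and 12.80 in WT UVA, 12.40 and 12.40 in KO sham and 12.58 and 12.58 in KO UVA, with the UVA arrays above the sham arrays throughout. Vcp itself differed by 0.17 without passing.

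Of 8 transcription factors and processing genes, 6 were positive after UVA and none passed. Nfe2l2, which encodes NRF2, was higher in all 4 pairs by a mean of 0.13, and its partner Mafg by 0.21. Nfe2l1, which encodes NRF1, differed by 0.01, and Ngly1, the enzyme that activates NRF1, by -0.14. Nfyb, a subunit of the CCAAT-binding factor, was higher after UVA in all 4 pairs (0.17). In KO, Nfe2l1 was higher in all 4 pairs (0.12), while Nfyb (-0.20) and Nfe2l2 (-0.12) were lower in 3 of 4. Of the 4 other subunits and assembly factors, 2 were positive and 2 negative after UVA. Akirin2, which brings proteasomes into the nucleus, differed by 0.13, Ecpas by 0.12 and Pomp, the maturation factor of the core, by -0.06. The 19S subunit gene Sem1 was the other negative one. Of the 12 MHC class I genes 5 were positive and 7 negative after UVA. In KO the largest differences there were those of Nlrc5 (0.35) and the class I heavy chain gene H2-K1 (0.31), both higher in all 4 pairs without passing (limma adjusted p = 0.468 and 0.297 with the number block). In the other lists the genotype differences furthest from 0 were those of the proteasome-bound deubiquitinase Uchl5 (-0.14, lower in all 4 pairs), Zfand5 (-0.09), the ubiquitin-activating enzyme Uba6 (0.12), the VCP cofactor Ufd1 (-0.11), Pomp (0.08) and the 19S subunit gene Sem1 (0.06). In the genotype comparison 0 genes of these 5 lists passed, unblocked or with the number block.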

How the data were processed

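Per the submitters' processing notes, the authors made the deposited intensity values by RMA in Affymetrix Expression Console 1.3.1.187. No source used here names a genome build. The intensities are whole numbers between 7 and 22585, hence linear, whereas log2 values had been planned for, so log2 was taken first. Probe sets with 1 gene symbol were kept (23521 of 41345), and each gene took the one with the highest mean. RMA gives all arrays near-equal distributions, which hides any shift shared by most transcripts. Tests used limma 3.58.1 (R 4.3.3): 4 group means over 8 arrays, eBayes with a trend, two-sided, Benjamini-Hochberg adjustment over 22180 genes at 0.05. Every adjusted p is limma's. Residual degrees of freedom were 4 unblocked, 3 with the number block and 2 with the culture block. Numbers shared in the titles were taken to pair the arrays. The ground was that, over all genes, deviations from group means had correlations of 0.80 to 0.92 in the 6 pairs of groups. Over the 47 members the correlations were lower, at 0.49 to 0.83. Between WT sham and WT UVA the members gave 0.83, and between KO sham and KO UVA 0.52.

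Members and gene lists were chosen with earlier results of these data known. By rule, values per array are given for the catalytic subunits, Psme1 to Psme4, the 3 highest and 3 lowest members of the averaged UVA, averaged genotype and interaction comparisons, and members past the threshold in a blocked fit. Pathway genes were named if they passed or were among the 2 of their list with the largest difference after UVA or in KO. Other members, Nfe2l1, Ngly1 and Irf1 were named after their values were seen. All 47 members matched RefSeq by Entrez identifier. The unblocked and number-block limma fits were tested on simulated data in the averaged genotype comparison. The culture block and the UVA comparisons were not tested in this way. Alternatives were the blocks, no trend, a filter on dim genes, array centring, log2(value + 16), the mean of probe sets and leaving out arrays.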

Additional observations from a re-analysis of the deposited data

Results flagged for a closer look

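Of the 22 members that the naming rule picked, 5 had differences of opposite sign under the same contrast. The rule takes in the members with the highest and lowest interaction values, which favours such opposite signs. For Psmg3 and Psmb5 both WT pairs were higher after UVA and both KO pairs lower, with interaction values of -0.246 and -0.0656. For Psmg2 and Psmd11 both KO minus WT pairs were higher after sham and lower after UVA, with interaction values of -0.1635 and -0.208. For Psmd13 they were lower after sham and higher after UVA (0.1317). Psmc2, named outside the rule, was higher in KO after sham (0.02 in both pairs) and lower after UVA (-0.07 and -0.05). The test of the difference itself did not pass for any of the 5 (limma adjusted p = 1 unblocked, with the number block and with the culture block). Over all 22180 genes, 7.45% showed the first pattern and 6.25% the second, against 3 (6.38%) and 6 (12.8%) of the 47 members.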

How the results depend on the processing

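Without a block, with the replicate number as a block, without the eBayes trend, with dim genes left out, with arrays centred on their medians, with log2(value + 16) and with the mean of all probe sets, limma called 0 members in each of the 7 comparisons. The culture block called 1, Psma1, in the averaged UVA comparison (adjusted p = 0.0340). Under these settings every median over members moved by less than the spread between the replicate numbers. The blocks and the trend setting leave every log2 difference of this balanced design as it is. Only the filter, the centring, log2(value + 16) and the mean of probe sets could move a median. The culture block gives no value for KO against WT, and the filter on dim genes none for Psma5 and Psma8. Leaving out 1 array was done only in unblocked fits and left 1 array in a group. The call of Psma1 with the culture block was therefore not put to it. Keeping 1 replicate number alone (added after seeing the data) allows no test. Over both, medians ran from -0.0645 to -0.0211 (KO against WT, averaged), -0.0683 to 0.0029 (after sham), -0.0932 to -0.0101 (after UVA), 0.0259 to 0.1048 (UVA against sham, averaged), 0.0518 to 0.1307 (in WT), 0.0214 to 0.1748 (in KO) and -0.0706 to 0.0248 (interaction). Leaving out an array leaves the numbers unequal between groups. Then the direction turned for Psmb10 (-0.192 to 0.295) and Psmd5 (-0.0365 to 0.135) in the genotype comparison and for Psma8 after UVA (-0.321 to 0.0475) and in the interaction (-0.241 to 0.496). The cause was not tested. The replicate block changed no call of a member. The number of arrays limits every value.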

Other observations

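Probe sets that the main values do not use gave these readings. The brighter of 2 probe sets shared by Psma4 and AY074887 had a mean of 10.01 log2 units and was 0.10 higher after UVA, in 3 of 4 pairs, and 0.08 lower in KO (KO minus WT -0.08). The dimmer one had a mean of 5.47 and differed by -0.03 after UVA. A second probe set of Psmc2 differed by 0.06 after UVA, higher in 2 of 4 pairs, where the one used differed by 0.17. A second probe set of Psma5 was as dim as the one used (mean 5.86) and gave a similar KO minus WT difference (-0.22). A probe set shared by Psmd1 and Armc9 was lower after UVA in all 4 pairs (-0.07), where that of Psmd1 alone was 0.17 higher. A second, dim probe set of Psmg2 (mean 5.17) differed by 0.01 after UVA, higher in 2 of 4 pairs. The one used differed by -0.19. A probe set shared by Psme2 and other genes differed by -0.23 after UVA and by 0.19 in KO. That of Psme2 alone differed by -0.06 and -0.04.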
